A study of Mus musculus with 9 samples.

Results

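The receptors described here are 10 members of the TNF receptor superfamily, chosen by gene symbol: Tnfrsf9 (4-1BB), Tnfrsf4 (OX40), Tnfrsf18 (GITR), Cd27, Tnfrsf25 (DR3), Tnfrsf8 (CD30), Tnfrsf1a (TNFR1), Tnfrsf1b (TNFR2), Fas and Tnfrsf19 (TROY). All 10 were among the 24060 genes measured, and 9 of them passed the filter of a highest level above 1 TPM (a transcript abundance scaled to a fixed library total, a level corrected for gene length and library size) that left 11330 genes for testing. Tnfrsf8 did not pass, and Tnfrsf19 passed only through the libraries of 1 clone, R7-II, with at most 0.53 TPM in the others. The libraries came from 3 lines of transnuclear mice, which are cloned from the nucleus of a single CD8 T cell and carry the T cell receptor (TCR) of that cell at its own loci. The lines R7-I, R7-II and R7-III see the same peptide, ROP7 of Toxoplasma gondii, on the class I molecule H-2Ld. The submitters rank their TCR affinity as R7-I, then R7-III, then R7-II, and their self-reactivity as R7-III, then R7-I, then R7-II.

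Each clone had 3 libraries, labelled as biological replicates, and all 9 had the same peptide and IL-2 treatment. Splenocytes were kept overnight with 10 µM ROP7 peptide in medium containing 10 ng/ml IL-2, and live cells positive for CD3, CD8 and the H-2Ld-Rop7 tetramer were then sorted for polyA RNA. The labels give neither the age nor the sex of the mice and do not say whether the replicates came from separate animals, so the p-values measure the spread between these libraries. Each line descends from 1 founder cell, so the TCR and any other property of a line cannot be told apart. Several cell sorters were used, and neither the sorter nor a sequencing batch is given for each library, so their part in the differences was not tested. No library of unstimulated cells was analysed here. All values are therefore levels after activation, and none is a response to the peptide.

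Receptors of this superfamily bind trimeric ligands of the TNF family at the cell surface. One branch, with 4-1BB, OX40, GITR, CD27, CD30 and TNFR2, recruits TRAF adaptors and feeds into NF-kappa-B, and on T cells it acts as costimulation after antigen contact. The other branch, with Fas, TNFR1 and DR3, carries a cytoplasmic death domain that can lead either to caspases or to NF-kappa-B. Resting T cells hold CD27 at the surface, whereas 4-1BB and OX40 are known as receptors that appear after TCR engagement.

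All libraries carried the RNA of CD8 T cells: Cd8a lay between 339 and 452 TPM and Cd3e between 267 and 389, while Cd4 reached at most 1.00 TPM and Foxp3, the regulatory T cell factor, at most 1.07. The NK cell receptor gene Klra8 was listed at 0 in all 9 libraries, and the 5 NK genes summed to between 2.40 and 23.2 TPM. The 10 T lineage genes summed to 3472 to 3491 TPM in R7-II, against 2702 to 2795 in R7-I and 2923 to 3056 in R7-III. All but Cd5 had their highest mean in R7-II. By limma at an adjusted p under 0.01, the test used below, 7 were higher than in R7-I and 8 than in R7-III. Of all genes tested, 40.6% and 35.6% were. Cd5 was called lower in both. The sums of B cell, MHC class II and myeloid markers also stood highest in R7-II, while those of NK, erythroid, and CD4 and regulatory T cell genes did not. The 8 B cell genes summed to between 34.2 and 71.0 TPM there, against 8.11 to 15.1 in R7-I and 4.92 to 7.38 in R7-III, and the 8 MHC class II genes to between 116 and 189 TPM, against 33.1 to 51.3 and 24.9 to 29.6. By the same test, 7 of 7 tested B cell genes and 8 of 8 MHC class II genes exceeded both other clones in R7-II, as did 3615 of all 11330 genes tested. Of 12 myeloid genes 11 were measured and 10 tested. In R7-II 7 were higher in each comparison (backgrounds 40.6% and 35.6%) and Zbtb46 was lower. The 7 differed, with Cd14 called only against R7-I and Itgam only against R7-III. Cd22, Blk, Ciita, Csf1r, Itgam, Cd14, Fcer1g, Spi1 and Xcr1 passed the filter only through R7-II, with at most 0.93 TPM in the other libraries. Without the widely expressed Cst3 the measured myeloid genes summed to between 21.7 and 78.7 TPM in R7-II, against 3.90 to 4.94 in R7-I and 5.19 to 6.53 in R7-III. NK genes summed to between 4.08 and 10.8 TPM in R7-II, against 17.8 to 23.2 in R7-I and 2.40 to 18.7 in R7-III. CD4 and regulatory T cell genes summed to between 8.70 and 10.4 TPM in R7-II, against 7.04 to 7.40 and 11.4 to 13.1. Of 3 tested, Foxp3, which passed the filter only through R7-II, was called higher and Cd40lg lower against R7-III (backgrounds 35.6% and 18.0%), and none was called against R7-I. Erythroid genes summed to between 1.25 and 73.2 TPM, with the highest sum in an R7-I library. Replicate 2 held the lowest B cell, MHC class II and myeloid sums of the R7-II libraries, each still above every R7-I and R7-III library. Fold changes of the tested receptors are therefore also given below with replicate 2 as the only R7-II library, which does not remove the part of other cells. Ligands, other receptors and signalling genes are not given that way. The part of these cells in the receptor levels was not tested, and in bulk RNA fewer cells of a type and less RNA per cell cannot be told apart.

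R7-II stood apart from both other clones in most of the receptors. Against R7-I, 9 of 9 tested receptors passed the test (limma on log2 of TPM + 1, Benjamini-Hochberg adjusted p under 0.01), where 56.1% of all genes tested did. Of these, 7 were higher in R7-II, against a background of 40.6% of genes, and 2, Tnfrsf9 and Tnfrsf4, were lower, against 15.5%. Against R7-III, 8 of 9 passed, with a background of 53.6%. Here 7 were higher (background 35.6%) and Tnfrsf4 alone was lower (background 18.0%). The 7 higher genes were Cd27, Fas, Tnfrsf18, Tnfrsf19, Tnfrsf1a, Tnfrsf1b and Tnfrsf25 in each comparison, and both comparisons use the same R7-II libraries. The 9 receptors had a median log2 fold change of 0.65 in the R7-I comparison and 0.60 in the R7-III comparison, beside 0.17 and 0.12 over all genes tested. Tnfrsf19 entered these counts only through R7-II. With genes required to reach 1 TPM in every library, 8 of 8 passed against R7-I (6 higher) and 7 of 8 against R7-III (6 higher). Of all genes, 58.8% and 55.6% then passed (42.1% and 36.7% higher). With replicate 2 as the only R7-II library, the 7 higher genes kept positive log2 fold changes in both comparisons. These ran from 0.35 (Tnfrsf1b against R7-III) to 3.17 (Tnfrsf19 against R7-I). Tnfrsf4 stayed lower in both, and Tnfrsf9 gave -0.35 against R7-I and 0.085 against R7-III. Relative to the T lineage genes, which were themselves highest in R7-II, 4 receptors were higher and 2 lower in each comparison. That scaling turned the background round, to 13.9% of all genes higher and 39.5% lower against R7-I and 12.3% and 40.3% against R7-III.

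**Figure D1:**
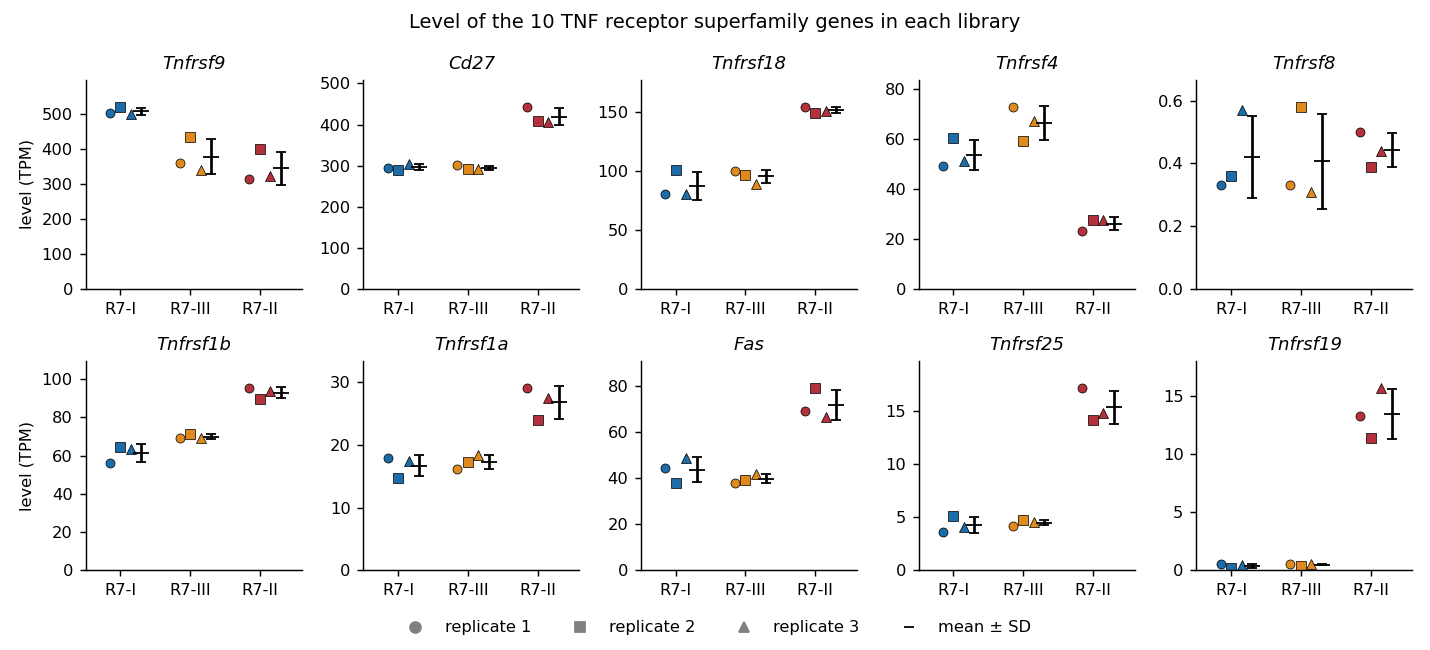
Level in TPM (vertical axes, linear from 0, a scale for each gene) of the 10 receptors in the 3 libraries of R7-I, R7-III and R7-II. Symbols mark the replicate number and the bar beside them the mean ± SD. The R7-II libraries lie above the other 6 for 7 genes and below them for Tnfrsf4, and the 3 groups overlap for Tnfrsf8.

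Libraries are compared here on the TPM scale, which fixes the sum of each library. Dividing by a median-of-ratios factor moved the median of all genes tested from 0.17 to 0.01 on the log2 scale against R7-I and from 0.12 to 0.00 against R7-III. It turned the share of higher calls among all genes from 4604 of 6358 to 2949 of 6179 against R7-I and from 4038 of 6077 to 2896 of 6046 against R7-III. The receptors kept their 7 higher and 2 lower calls against R7-I and their 7 higher and 1 lower against R7-III. Of all genes tested, 26.0% were then higher and 28.5% lower against R7-I, and 25.6% and 27.8% against R7-III.

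When R7-II was set against the 6 libraries of R7-I and R7-III by exact permutation, two-sided, 8 of the 9 receptors reached p = 0.0238, which is the smallest value that 3 against 6 libraries allow. Tnfrsf9 gave an exact p = 0.119. All 3 R7-II libraries lay outside the range of the other 6 for those 8 genes, as did 59.1% of all genes tested. Tnfrsf19, which passed the filter only through R7-II, is among those 8 genes. Taken clone by clone, the libraries did not overlap for 9 of 9 receptors against R7-I (background 71.2%) and for 8 of 9 against R7-III (background 70.6%).

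In the mouse genome (build GRCm38, mm10, RefSeq gene spans), 6 of the 10 genes are on chromosome 4: Tnfrsf1b (chr4:145212368-145246870, minus strand), Tnfrsf8 (chr4:145267132-145315164, minus), Tnfrsf9 (chr4:150920155-150946104, plus), Tnfrsf25 (chr4:152115528-152120119, plus), Tnfrsf4 (chr4:156013595-156016613, plus) and Tnfrsf18 (chr4:156026322-156028894, plus). Cd27 (chr6:125232620-125237136, minus) and Tnfrsf1a (chr6:125349723-125362483, plus) are on chromosome 6, Tnfrsf19 is at chr14:60963834-61046855 (minus) and Fas at chr19:34290647-34327775 (plus). The 250 bases before a RefSeq start are shown for 4 genes of chromosome 4. Tnfrsf8 and the second of the 2 starts of Tnfrsf9 hold both motifs searched, while the window of the first Tnfrsf9 start holds neither. Tnfrsf4 and Tnfrsf18 lie near each other and differed in opposite directions in R7-II. Sequences are from RefSeq on GRCm38.p6, written 5′ to 3′ on the strand of the gene, and capitals mark a kappa-B consensus or AP-1 match. The Tnfrsf9 stretch is chr4:150927749-150927998, before the second of its 2 starts, the Tnfrsf8 stretch chr4:145315165-145315414, the Tnfrsf4 stretch chr4:156013445-156013694, before a start that lies inside the gene span given above, and the Tnfrsf18 stretch chr4:156026072-156026321.
Tnfrsf9: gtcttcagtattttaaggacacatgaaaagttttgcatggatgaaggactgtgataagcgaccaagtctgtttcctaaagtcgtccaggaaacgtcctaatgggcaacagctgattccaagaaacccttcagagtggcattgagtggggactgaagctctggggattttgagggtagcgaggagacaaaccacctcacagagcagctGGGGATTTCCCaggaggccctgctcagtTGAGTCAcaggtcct
Tnfrsf8: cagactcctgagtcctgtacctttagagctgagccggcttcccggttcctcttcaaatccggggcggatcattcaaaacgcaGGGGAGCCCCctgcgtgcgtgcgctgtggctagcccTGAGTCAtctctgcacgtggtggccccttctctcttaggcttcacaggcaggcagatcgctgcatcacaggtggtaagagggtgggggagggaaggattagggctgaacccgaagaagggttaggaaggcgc
Tnfrsf4: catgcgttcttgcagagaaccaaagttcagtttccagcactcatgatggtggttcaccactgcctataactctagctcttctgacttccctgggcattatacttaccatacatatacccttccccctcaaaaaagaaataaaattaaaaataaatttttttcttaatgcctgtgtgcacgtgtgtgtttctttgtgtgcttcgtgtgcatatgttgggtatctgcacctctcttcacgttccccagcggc
Tnfrsf18: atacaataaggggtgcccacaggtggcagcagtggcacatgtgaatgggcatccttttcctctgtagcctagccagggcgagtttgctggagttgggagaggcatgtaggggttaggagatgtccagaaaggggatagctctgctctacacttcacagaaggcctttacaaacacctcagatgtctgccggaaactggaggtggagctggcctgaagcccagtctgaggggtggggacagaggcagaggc

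Windows from 250 bases before to 50 bases after each start were searched on both strands for the kappa-B consensus and for AP-1, written as TGACTCA or TGAGTCA. Of 13 windows for the 10 receptors, 2 held kappa-B and 3 held AP-1, and the shares over all 32851 RefSeq windows were 4.51% and 5.20%. In Tnfrsf9 the kappa-B match lay at bases -43 to -33 and the AP-1 match at -15 to -9 before the start, and in Tnfrsf8 at -168 to -159 and -132 to -126. Both motifs together occurred in 75 of all windows (0.228%). The third AP-1 match was in Fas, at -211 to -205. These are letter matches and not measured binding, and the expression values do not tell which start was used.

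Tnfrsf9, the gene of the costimulatory receptor 4-1BB, was the most abundant of the 10 in R7-I. It lay at 502, 519 and 499 TPM in R7-I, at 314, 399 and 322 TPM in R7-II and at 359.9, 433 and 340.0 TPM in R7-III. The 3 R7-I libraries were above all 6 others, and the R7-II and R7-III libraries overlapped. The means were 507 ± 10.7, 345 ± 46.9 and 378 ± 49.1 TPM (SD, n = 3). Tnfrsf9 was lower in R7-II than in R7-I by a log2 fold change of -0.56 (standard error 0.0968, limma adjusted p = 4.19e-04). The change of -0.13 against R7-III did not pass (adjusted p = 0.246), nor did that of -0.43 in R7-III against R7-I (adjusted p = 0.0119). With replicate 2 as the only R7-II library the value against R7-I was -0.35 (adjusted p = 0.0322). Relative to the T lineage genes the change against R7-III became -0.46 and passed (adjusted p = 6.11e-04).

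Tnfrsf4 was the receptor gene lowest in R7-II relative to both other clones. OX40, its product, sustains T cell expansion and survival after activation. It lay at 49.1, 60.5 and 51.0 TPM in R7-I, at 23.3, 27.6 and 27.6 TPM in R7-II and at 72.8, 59.1 and 67.2 TPM in R7-III. All R7-II libraries lay below the lowest of the others, while R7-I and R7-III overlapped. R7-II differed from R7-I by a log2 fold change of -1.0 (standard error 0.0973, adjusted p = 7.38e-06) and from R7-III by -1.31 (adjusted p = 1.18e-06). R7-III was above R7-I by 0.31, which did not pass (adjusted p = 0.0518).

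Tnfrsf18, the gene of GITR, starts 9708 bases beyond the end of Tnfrsf4 on the same strand and ran the other way. GITR is a costimulatory receptor of activated T cells that is also high on regulatory T cells. Tnfrsf18 lay at 80.5, 101 and 80.1 TPM in R7-I, at 154, 149 and 151 TPM in R7-II and at 100.2, 97.0 and 88.8 TPM in R7-III. Every R7-II value exceeded the highest of the others, and R7-I and R7-III overlapped. The difference was 0.80 on the log2 scale from R7-I (standard error 0.0798, adjusted p = 9.23e-06) and 0.67 from R7-III (adjusted p = 3.55e-05). Within a library, Tnfrsf18 stood at 1.57 to 1.67 times the Tnfrsf4 level in R7-I, at 1.32 to 1.64 times in R7-III and at 5.42 to 6.63 times in R7-II, a ratio that does not depend on how libraries are scaled. The pair was set against each other after their values were seen, so the ratio carries no test. An annotated antisense gene, Gm16008, overlaps Tnfrsf18 and was not in the table, and reads without strand cannot separate them.

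Cd27, the gene of a costimulatory receptor held by naive and memory T cells, was the second most abundant of the 10 in R7-I and R7-III and the most abundant in R7-II. It lay at 294, 289.7 and 304 TPM in R7-I, at 443, 409 and 406 TPM in R7-II and at 301, 293 and 292 TPM in R7-III. R7-I and R7-III could not be separated (difference -0.0036 on the log2 scale, standard error 0.0358, adjusted p = 0.962). R7-II was higher by 0.50 against R7-I (standard error 0.0358, adjusted p = 9.38e-07) and by 0.50 against R7-III (adjusted p = 8.54e-07). Relative to the T lineage genes these differences fell to 0.13 (adjusted p = 0.0487) and 0.18 (adjusted p = 0.0118) and no longer passed. A microRNA gene, Mir8113, lies within an exon of Cd27 on the same strand and was listed at up to 29.0 TPM, so reads may have been split between them.

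Tnfrsf25 and Tnfrsf19 showed the largest relative differences, at lower levels. DR3, the product of Tnfrsf25, is a death domain receptor that acts mainly as a costimulator on T cells. Tnfrsf25 lay at 3.58, 5.10 and 4.12 TPM in R7-I, at 17.2, 14.2 and 14.8 TPM in R7-II and at 4.22, 4.73 and 4.58 TPM in R7-III. R7-II was far above both, with log2 fold changes of 1.64 (standard error 0.110, adjusted p = 6.13e-07) and 1.57 (adjusted p = 7.74e-07), and the other clones overlapped.

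Tnfrsf19 encodes TROY, a receptor known mainly from the nervous system, hair follicles and epithelial stem cells. It lay at 0.51, 0.20 and 0.45 TPM in R7-I, at 13.3, 11.4 and 15.7 TPM in R7-II and at 0.53, 0.42 and 0.51 TPM in R7-III. The gene was thus near the bottom of the measured range in 6 libraries and well above it in the 3 of R7-II. The mean TPM of R7-II was 34.8 times that of R7-I and 27.6 times that of R7-III, and the log2 fold changes on the TPM + 1 scale were 3.38 (standard error 0.132, adjusted p = 2.79e-08) and 3.27 (adjusted p = 5.65e-08). The log2 value rests on the added constant: with 0.1 in place of 1 it was 4.85 and 4.52, and with 5 it was 1.77 and 1.74. R7-II replicate 2 had the lowest Tnfrsf19 of the 3 R7-II libraries, and as the only R7-II library it gave 3.17 and 3.06. Its B cell, MHC class II and myeloid genes were the lowest of the 3 but together reached 252 TPM, against at most 138 in R7-I and R7-III. The myeloid sums ranked the 3 R7-II libraries in the order of Tnfrsf19, and the B cell and MHC class II sums did not. The part of other cells in the Tnfrsf19 level was not tested. The study had already singled out Tnfrsf19 from these same libraries, so its difference is not independent evidence.

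**Figure D2:**
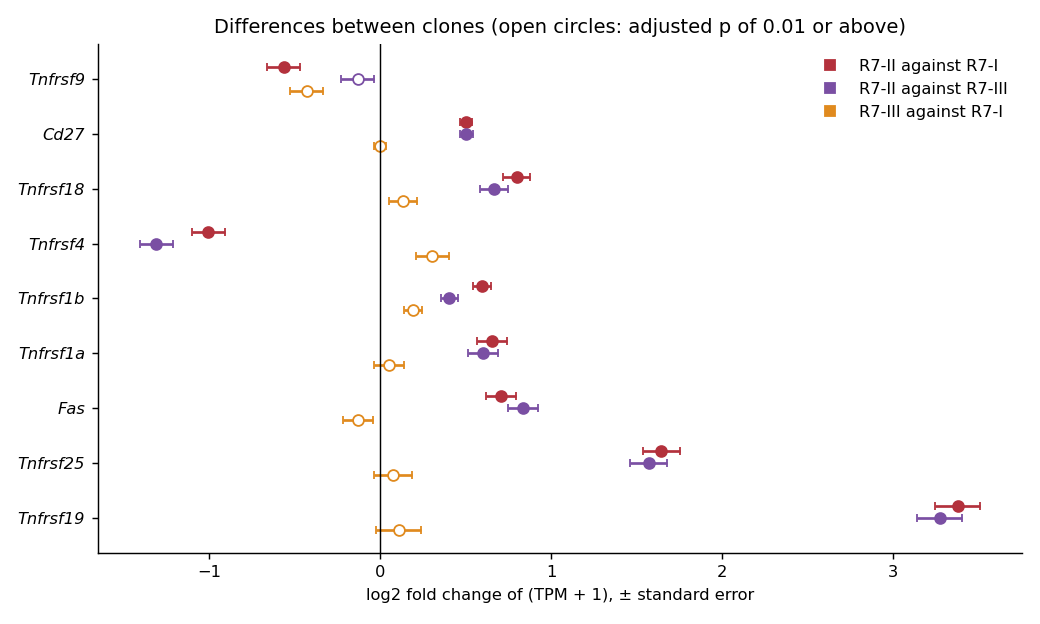
Log2 fold change of TPM + 1 (horizontal axis) with its standard error for the 9 tested receptors in the 3 comparisons between clones, each from 3 libraries per clone. Filled circles had an adjusted p under 0.01. The R7-II comparisons run from -1.31 for Tnfrsf4 to 3.38 for Tnfrsf19, and all 9 circles of R7-III against R7-I are open and lie between -0.43 and 0.31.

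The receptors of TNF itself were both higher in R7-II. TNFR2 (Tnfrsf1b) binds TRAF2 and supports T cell survival, whereas TNFR1 (Tnfrsf1a) carries a death domain. Tnfrsf1b lay at 56.0, 64.3 and 63.5 TPM in R7-I, at 95.1, 89.7 and 93.9 TPM in R7-II and at 69.2, 71.5 and 69.2 TPM in R7-III. Its 3 groups did not overlap at all, in the order R7-I, R7-III, R7-II. On the log2 scale R7-II exceeded R7-I by 0.59 (standard error 0.0514, adjusted p = 3.41e-06) and R7-III by 0.40 (adjusted p = 5.44e-05), and the 0.19 of R7-III against R7-I did not pass (adjusted p = 0.0271). Tnfrsf1a lay at 17.9, 14.8 and 17.4 TPM in R7-I, at 29.0, 24.0 and 27.5 TPM in R7-II and at 16.1, 17.3 and 18.5 TPM in R7-III. Only the R7-II group stood apart, by 0.65 (standard error 0.0882, adjusted p = 7.83e-05) and 0.60 (adjusted p = 1.49e-04). Relative to the T lineage genes, Tnfrsf1a no longer passed against R7-I (0.30, adjusted p = 0.0130) or R7-III (0.29, adjusted p = 0.0158), and Tnfrsf1b no longer passed against R7-III (0.08, adjusted p = 0.292). With replicate 2 as the only R7-II library, Tnfrsf1a against R7-III was 0.45 and did not pass (adjusted p = 0.0126).

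Fas, the gene of the death receptor through which activated T cells can be eliminated, followed the same pattern. It lay at 44.4, 37.9 and 48.9 TPM in R7-I, at 69.4, 79.1 and 66.9 TPM in R7-II and at 38.0, 39.5 and 41.8 TPM in R7-III. R7-II was higher by 0.71 against R7-I (standard error 0.0881, adjusted p = 4.52e-05) and by 0.83 against R7-III (adjusted p = 1.47e-05), and the R7-I libraries spanned those of R7-III. Relative to the T lineage genes the value against R7-I was 0.35 (adjusted p = 0.0107).

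Tnfrsf8, the gene of CD30, was barely measured. It lay at 0.33, 0.36 and 0.57 TPM in R7-I, at 0.50, 0.39 and 0.44 TPM in R7-II and at 0.33, 0.58 and 0.31 TPM in R7-III. No group stood apart. TPM carries no read depth, so no counting error can be set on values this low.

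**Figure D3:**
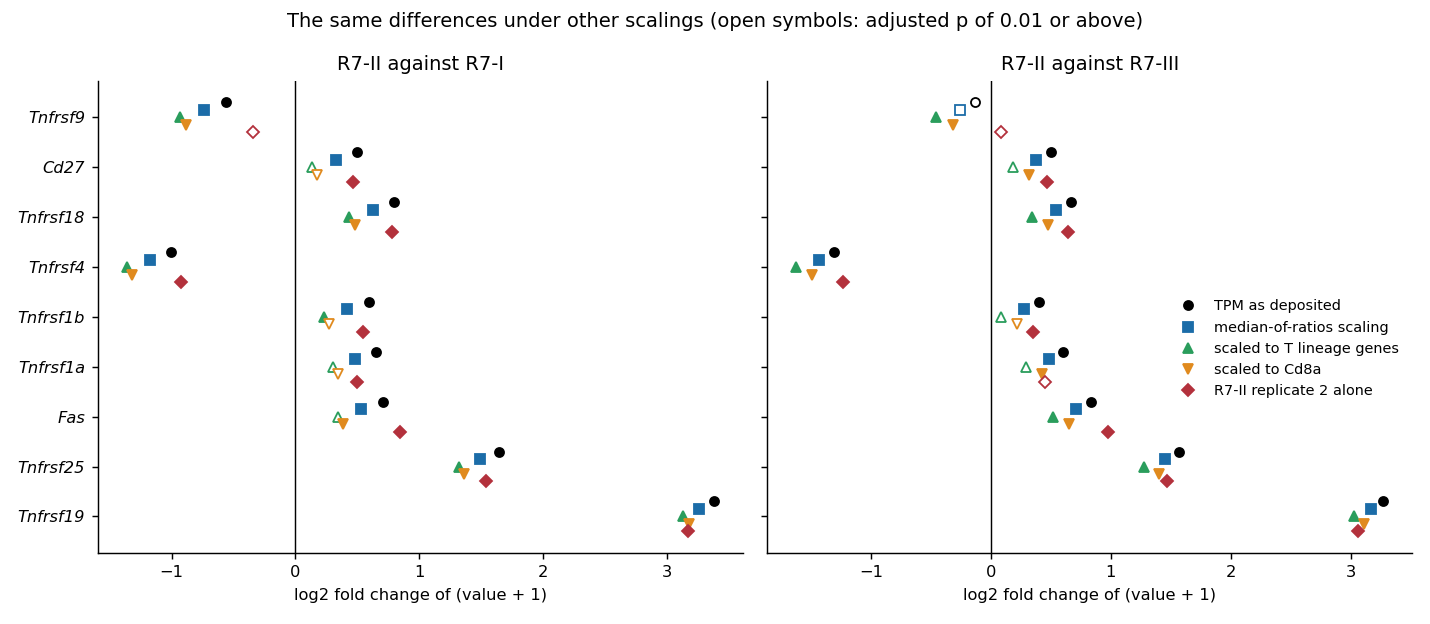
Log2 fold change (horizontal axes) of the 9 tested receptors in R7-II against R7-I (left) and R7-III (right) for TPM as deposited, after median-of-ratios scaling, after scaling to the T lineage genes or to Cd8a, and with replicate 2 as the only R7-II library. Filled symbols had an adjusted p under 0.01. Tnfrsf19, Tnfrsf25, Tnfrsf18 and Tnfrsf4 stay filled in every setting shown, and Cd27, Tnfrsf1a, Tnfrsf1b, Fas and Tnfrsf9 each have at least 1 open symbol.

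Between R7-III and R7-I none of the 9 receptors passed at an adjusted p of 0.01 in limma, where 8.41% of all genes did. At an adjusted p of 0.05 there were 2, Tnfrsf9 and Tnfrsf1b, beside 18.9% of all genes. The libraries of these clones did not overlap for the same 2 genes, beside 41.9% of all genes. The median log2 fold change of the 9 was 0.07, beside 0.04 over all genes. Scaled to Cd8a, the change of Tnfrsf9 was -0.57 and passed (adjusted p = 5.12e-04).

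The summed level of the 10 receptors was 1070.5 ± 22.1 TPM in R7-I, 1163 ± 39.0 in R7-II and 967 ± 46.8 in R7-III (SD, n = 3). Tnfrsf9 held 47.4% ± 0.611 of the sum in R7-I, 29.6% ± 3.15 in R7-II and 39.0% ± 3.20 in R7-III, and Cd27 held 27.7% ± 1.02, 36.1% ± 2.11 and 30.6% ± 1.54. The mean share of Tnfrsf9 was thus above that of Cd27 in R7-I and R7-III and below it in R7-II.

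Among the ligands of the TNF superfamily more genes were lower than higher in R7-II. Of 17 ligand genes 12 were tested, and against R7-I 2 were higher (background 40.6%) and 7 lower (15.5%) in R7-II, with a median log2 fold change of -0.46 beside 0.17 over all genes. Against R7-III 1 was higher (35.6%) and 7 lower (18.0%), with a median of -0.45 beside 0.12. Median-of-ratios scaling gave 2 higher (background 26.0%) and 7 lower (28.5%) against R7-I and 1 (25.6%) and 9 (27.8%) against R7-III. Fasl, the ligand of Fas and a killing molecule of CD8 T cells, stood at 9.97 ± 0.870 TPM in R7-I, 3.02 ± 0.0473 in R7-II and 8.04 ± 1.12 in R7-III, lower in R7-II by log2 fold changes of -1.44 (adjusted p = 6.31e-07) and -1.16 (adjusted p = 2.66e-06). Fas stood at 4.20 to 4.56 times the Fasl level in R7-I, at 4.48 to 5.36 times in R7-III and at 22.0 to 25.8 times in R7-II, a ratio formed after the values were seen. Cd70, the CD27 ligand, stood at 2.79 ± 0.980, 0.683 ± 0.182 and 4.02 ± 0.698 TPM in R7-I, R7-II and R7-III and was lower in R7-II by -1.14 (adjusted p = 3.90e-04) and -1.57 (adjusted p = 4.31e-05).

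Other ligand genes of the 10 receptors were less uniform. Tnfsf9, the 4-1BB ligand, was lower in R7-II than in R7-I by -0.77 (adjusted p = 0.00355), and the value of -0.61 against R7-III did not pass (adjusted p = 0.0132) but became -0.71 and passed with median-of-ratios scaling (adjusted p = 0.0065). Tnfsf4, the OX40 ligand, was the exception that was higher: it stood at 14.7 ± 2.54 TPM in R7-II and 8.0 ± 1.96 in R7-I (0.81, adjusted p = 0.00133), while Tnfrsf4 itself was lower there. Against R7-III the Tnfsf4 value was 0.48 (adjusted p = 0.0263). Tnfsf8, the CD30 ligand, stood at 83.0 ± 7.09 TPM in R7-II and was lower than in R7-I (-0.48, adjusted p = 5.63e-05) and R7-III (-0.24, adjusted p = 0.00548), although its receptor gene Tnfrsf8 stayed under 1 TPM.

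Tnf had the highest mean of the ligand genes over the 9 libraries, though not in R7-II, and stood at 147 ± 2.54 TPM in R7-I, 104 ± 12.1 in R7-II and 115 ± 9.20 in R7-III. It was lower in R7-II than in R7-I (-0.50, adjusted p = 1.58e-04) and also in R7-III than in R7-I (-0.35, adjusted p = 0.00917), and R7-II against R7-III gave -0.15 (adjusted p = 0.102), or -0.27 with median-of-ratios scaling, which passed (adjusted p = 0.0077). Lta, which also binds both TNF receptors, gave -0.18 against R7-I (adjusted p = 0.168) and 0.21 against R7-III (adjusted p = 0.118), and neither passed. The largest ligand differences were in genes whose receptors are not among the 10. Ltb, a lymphotoxin subunit, stood at 270 ± 45.5 TPM in R7-II against 37.3 ± 3.81 in R7-I (2.81, adjusted p = 7.94e-08) and 39.7 ± 6.51 in R7-III (2.73, adjusted p = 1.14e-07), and Tnfsf11 (RANKL) stood at 13.7 ± 1.30 against 78.1 ± 8.55 (-2.42, adjusted p = 2.29e-08) and 92.0 ± 8.11 (-2.66, adjusted p = 3.17e-08). The study had already listed Tnfsf11 among its top genes lower in R7-II from these same libraries, so that difference is not independent evidence. The ligands of GITR and DR3 were barely measured, with Tnfsf18 at most at 0.05 TPM and Tnfsf15 at most at 0.10.

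**Figure D4:**
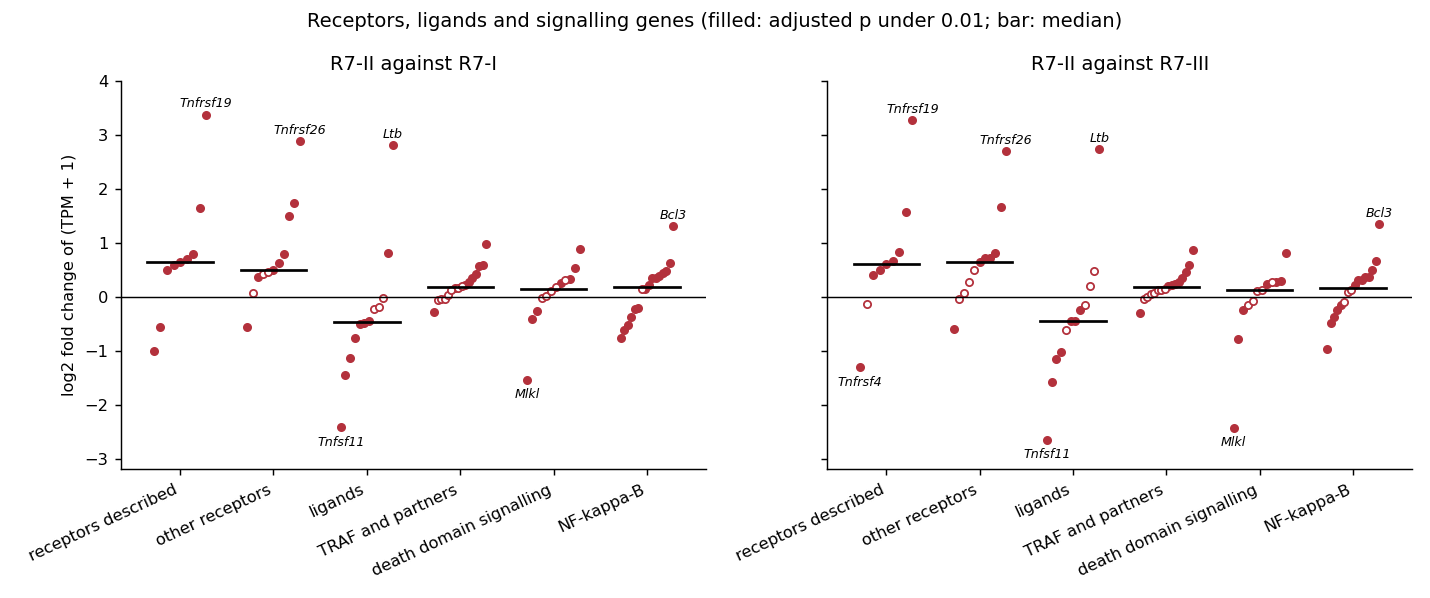
Log2 fold change of TPM + 1 (vertical axes) in R7-II against R7-I (left) and R7-III (right), 1 circle for each tested gene of the receptors described, the other receptors of the superfamily, their ligands and 3 signalling lists, with a bar at the median of each list. Filled circles had an adjusted p under 0.01. The receptor medians lie above 0 and the ligand medians at -0.46 and -0.45, and the 3 signalling lists have medians between 0.12 and 0.18, near the 0.17 and 0.12 of all genes tested.

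Of 18 other receptors of the superfamily 11 passed the filter. Cd40 passed it only through R7-II, with at most 0.64 TPM in the other libraries, and was called in neither R7-II comparison. Against R7-I 7 were higher (background 40.6%) and 1 lower (15.5%) in R7-II, and against R7-III 6 were higher (35.6%) and 1 lower (18.0%). The medians were 0.50 and 0.65, beside 0.17 and 0.12 over all genes. Median-of-ratios scaling gave 6 higher and 1 lower in each comparison. Its backgrounds were 26.0% and 28.5% against R7-I and 25.6% and 27.8% against R7-III. Tnfrsf14 (HVEM), a receptor of the lymphotoxin-related ligand LIGHT and partner of the inhibitory BTLA, stood at 103 ± 9.29 TPM in R7-II against 30.3 ± 3.41 in R7-I (1.74, adjusted p = 9.16e-07) and 32.3 ± 6.40 in R7-III (1.66, adjusted p = 1.24e-06). Tnfrsf26 stood at 29.3 ± 6.49 TPM against 3.05 ± 0.470 (2.89, adjusted p = 1.52e-07) and 3.59 ± 0.580 (2.70, adjusted p = 2.46e-07). Tnfrsf23 was higher by 0.79 and 0.81, and both belong with Tnfrsf22 to a cluster of similar genes whose reads may have been shared. Tnfrsf13b (TACI), best known from B cells, stood at 8.60 ± 0.621 TPM in R7-II, where the B cell genes were also highest, against 2.39 ± 0.348 in R7-I (1.5, adjusted p = 2.70e-06) and 4.86 ± 1.01 in R7-III (0.72, adjusted p = 4.78e-04). It was higher in R7-III than in R7-I by 0.78 (adjusted p = 0.00205). The part of B cells in these values was not tested.

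Signalling genes below the receptors moved in both directions. Of 16 TRAF adaptors and their partners, 8 were higher (background 40.6%) and 1 lower (15.5%) in R7-II against R7-I, and 8 and 1 against R7-III (35.6% and 18.0%). With median-of-ratios scaling the split became 4 to 5 for R7-I (background 26.0% and 28.5%) and 4 to 2 for R7-III (25.6% and 27.8%). The medians of 0.18 and 0.18 lay near the 0.17 and 0.12 of all genes. Tnip1, an A20-binding inhibitor of NF-kappa-B, stood at 96.9 ± 7.26 TPM in R7-II against 48.8 ± 0.741 in R7-I (0.97, adjusted p = 1.12e-07) and 52.7 ± 0.465 in R7-III (0.86, adjusted p = 2.39e-07). The deubiquitinase gene Cyld was higher by 0.58 and 0.60 and Birc2 (cIAP1), a ligase of the TRAF2 complex, by 0.58 and 0.46, and neither Birc2 value passed relative to the T lineage genes (0.22, adjusted p = 0.0149, and 0.14, adjusted p = 0.104). Rbck1 (HOIL-1), the most abundant of the list, gave 0.16 in R7-II (adjusted p = 0.00104) and 0.19 in R7-III (adjusted p = 0.00226) relative to R7-I, and neither passed with median-of-ratios scaling (-0.01, adjusted p = 0.764, and 0.14, adjusted p = 0.0297).

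Of 12 genes of death domain signalling, 4 were higher and 3 lower in R7-II in each comparison, with backgrounds of 40.6% and 15.5% against R7-I and 35.6% and 18.0% against R7-III. With median-of-ratios scaling the counts were 2 and 4 against R7-I (background 26.0% and 28.5%) and 3 and 3 against R7-III (25.6% and 27.8%). The necroptosis genes split. Ripk3 stood at 37.6 ± 1.41 TPM in R7-II against 19.8 ± 0.387 in R7-I (0.89, adjusted p = 1.03e-06) and 21.1 ± 2.04 in R7-III (0.80, adjusted p = 1.99e-06), whereas Mlkl, its substrate, stood at 1.02 ± 0.557 TPM against 4.74 ± 0.934 (-1.54, adjusted p = 4.77e-05) and 9.68 ± 0.864 (-2.44, adjusted p = 1.85e-06). Cflar (c-FLIP), the inhibitor of Fas signalling and the most abundant of the list, stood at 88.8 ± 5.55 TPM in R7-II and did not pass in either comparison (-0.02, adjusted p = 0.759, and 0.12, adjusted p = 0.0623), but was called lower than in R7-I with median-of-ratios scaling (-0.19, adjusted p = 0.00193). Mlkl was also higher in R7-III than in R7-I, by 0.90 (adjusted p = 0.00947, or 0.0137 with median-of-ratios scaling).

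Of 16 NF-kappa-B kinases, subunits and inhibitors, 9 were higher (background 40.6%) and 6 lower (15.5%) in R7-II against R7-I, and 8 were higher (35.6%) and 5 lower (18.0%) against R7-III. The counts became 6 and 6 (background 26.0% and 28.5%), and 7 and 6 (25.6% and 27.8%), with median-of-ratios scaling. Nfkb1, the p105/p50 subunit and the most abundant, stood at 729.7 ± 10.5 TPM in R7-I, 564 ± 3.53 in R7-II and 628 ± 4.79 in R7-III, lower in R7-II by -0.37 (adjusted p = 2.43e-07) and -0.16 (adjusted p = 1.03e-04) and lower in R7-III than in R7-I by -0.22 (adjusted p = 1.44e-04). Nfkbie, the I-kappa-B epsilon gene, was lower by -0.76 and -0.96. Bcl3, a nuclear I-kappa-B protein, stood at 16.9 ± 2.41 TPM in R7-II against 6.15 ± 0.755 and 6.05 ± 0.867 (1.32 and 1.34), and Map3k14 (NIK), the kinase of the non-canonical pathway that TRAF3 and cIAP1 hold down, was higher by 0.62 and 0.66.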

How the data were processed

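Gene expression was measured by RNA sequencing of 9 libraries, 3 for each of the R7 clones, after overnight activation. The deposited table holds TPM for 24060 genes, made by the authors with RSEM 1.2.11, which ran the alignment of non-strand-specific reads and the gene-level counting against mm10 RefSeq genes. Which aligner RSEM called was not given in the sources used here. Submitters' processing notes also list DESeq2 1.8.1, which works on counts and was not used on TPM here. Levels are per gene, so membrane and soluble receptor isoforms are not resolved. TPM keeps no depth (every library sums to about 1000000), so no counting interval was given. Between 13738 and 14434 genes were above 0 in a library, replicates of a clone correlated at r = 0.992 to 0.997 across genes, and no libraries were identical. No further columns of per-sample values were left aside (0).

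Values were tested as log2(TPM + 1) with limma 3.58.1 (R 4.3.3) with a mean-variance trend, all 9 libraries in 1 model without a replicate term, and Benjamini-Hochberg adjustment over the 11330 genes with a maximum TPM above 1, at 0.01. Fold changes on this scale understate changes of low genes. Single receptors were also tested exactly over libraries with scipy 1.17.1 (Python 3.11.15). The code was tested on simulated data. Lists were described by counts and medians. Named were all 10 receptors, their ligands, the most abundant gene of each list, the 3 genes of each with the largest changes called in both R7-II comparisons in 1 direction, up to 2 called between R7-III and R7-I, the 3 genes most like each receptor, and Il2ra, except 1 gene that is not reported here. Tnfrsf22, Cd5, Zbtb46, Gm16008, Mir8113 and the single markers were named outside that rule after their values were seen. The receptors and lists were chosen with earlier results of these data known. Alternatives were other added constants, filters, scalings and limma settings, a replicate block, leaving out each library, and, chosen after seeing the data, scaling to Cd8a and R7-II replicate 2 alone, where the lone library is assumed to vary like the others.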

Additional observations from a re-analysis of the deposited data

How the results depend on the processing

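Among 609 recomputed values, 574 kept direction and call, 12 lost the call, 11 gained one and 12 changed sign, and no called value changed sign. The 9 and 8 receptors called in R7-II against R7-I and R7-III kept at least 6 and 5 of these calls, the fewest with T lineage scaling in both (where Tnfrsf9 was gained against R7-III) and with Cd8a scaling against R7-I. Of all genes, 53.4% and 52.6% were called with T lineage scaling and 46.0% with Cd8a scaling against R7-I. Tnfrsf19 was not tested with genes required to reach 1 TPM in each library. In R7-III against R7-I the count of 0 became 1 (Tnfrsf9, adjusted p at most 0.00908) under that same filter or with T lineage or Cd8a scaling. It also became 1 with only the libraries of the clones compared, and 2 at a threshold of 0.05. Of all genes, 9.33% were called under that filter, 4.72% with T lineage scaling and 10.0% with only the libraries compared. With Cd8a scaling 4.15% were called, and 18.9% at a threshold of 0.05. Leaving out 1 library gave 0 to 1, with 1 without R7-II replicate 2 (adjusted p = 0.00414) or without R7-III replicate 2 (adjusted p = 0.00611). Those 2 fits called 9.5% and 4.08% of all genes. The cause was not tested. Scaling to Cd8a further ended the calls of Tnfrsf1a (0.34, adjusted p = 0.0139), Tnfrsf1b (0.28, 0.0106) and Cd27 (0.18, 0.05) against R7-I and Tnfrsf1b against R7-III (0.22, 0.0381), and called Tnfrsf9 against R7-III (-0.32, 0.00501).

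The uncalled values that changed sign were Tnfrsf9 in R7-II against R7-III with R7-II replicate 2 alone (0.085) and, in R7-III against R7-I, Tnfrsf18 with Cd8a scaling (-0.0020), Tnfrsf25 with quantile normalization (-0.092), without R7-I replicate 1 (-0.022, range without 1 library -0.022 to 0.19) and with Cd8a scaling (-0.037), Tnfrsf1a with quantile normalization (-0.034), without R7-I replicate 2 (-0.030, range -0.030 to 0.10) and with Cd8a scaling (-0.078), and Cd27 with quantile normalization (0.0072) and without R7-I replicate 3, R7-III replicate 2 or R7-III replicate 3 (0.0025 to 0.016, range -0.019 to 0.016).

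Deviations of same-numbered libraries correlated at -0.04 to 0.09, none above 0.1, so the numbers were not taken to pair the samples. With the replicate block 9 and 8 receptors were called in the R7-II comparisons and 1 in R7-III against R7-I, Tnfrsf9 at -0.43 (adjusted p = 0.00196). Of all genes, 53.1% and 51.1% were called in those R7-II comparisons and 6.47% in R7-III against R7-I. TPM carries no depth, which limits what can be said of Tnfrsf8 and of Tnfrsf19 in R7-I and R7-III.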

Other observations

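Il2ra, the high-affinity IL-2 receptor chain and an activation gene, stood at 392, 364 and 375 TPM in R7-I, at 258, 274 and 246 TPM in R7-II and at 357, 369 and 346 TPM in R7-III. R7-II lay below the other 6 libraries, by a log2 fold change of -0.54 against R7-I (limma adjusted p = 1.95e-06) and -0.46 against R7-III (adjusted p = 5.94e-06), and R7-I and R7-III overlapped.

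Over the 9 libraries, which share the 3 clones, the tested genes whose log2 level followed a receptor most closely by Pearson correlation are given as a description. For Tnfrsf9 they were Tes, Pmpcb and Nom1 (r = 0.972 to 0.952), for Tnfrsf4 Atic, Pold2 and Syce2 (0.994 to 0.992), for Tnfrsf18 Rgs14, Necap2 and Spsb3 (0.993 to 0.987) and for Cd27 Emp1, Gabarap and Ccdc93 (0.998 to 0.997). For Tnfrsf25 they were Golgb1, Vps11 and Vrk3 (0.998 to 0.996) and for Tnfrsf19 Ccdc88c, Herc3 and Sema4f (0.998 to 0.997). For Tnfrsf1a they were Ercc6, Chmp3 and Mapk8ip3 (0.993 to 0.991), for Tnfrsf1b Fam117a, Cd37 and Clip2 (0.996 to 0.993) and for Fas Skp1a, Golph3l and R3hdm2 (0.984 to 0.983).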
